A study of Drosophila melanogaster with 90 samples.

Results

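Ovaries of Drosophila melanogaster females that carried the sov alleles KG00226 and NP6070 together were compared between the written orders KG00226/NP6070 and NP6070/KG00226. The members were chosen by genotype label and are 6 of the 90 libraries in the series, 3 for each order. In KG00226/NP6070 the label writes y[1] P{SUPor-P}CG14438[KG00226] before the slash and, after it, P{w[+mW.hs]=GawB}NP6070 on a chromosome with y[*] and w[*], and in NP6070/KG00226 the same chromosomes stand the other way round. Both alleles are transposon insertions at sov, neither group carries a w1118 chromosome, and both groups are labelled fertile and placed among the sov mutants. Each library pooled 15 ovaries, and the females were 4 to 5 days old and kept under constant light at 25 °C. The labels give the written order only and do not say which allele came from the mother.

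The gene sov (small ovary) encodes a nuclear zinc-finger protein that works with heterochromatin proteins and helps to keep transposons silent in the ovary. Daughters of a cross and of its reciprocal have the same nuclear alleles, but they receive their mitochondria, and the RNAs and proteins stored in the egg, from different mothers. Among the stored RNAs are piRNAs, small RNAs that guide silencing of transposons and whose makeup differs between fly stocks. Ribosomal protein genes, which form the largest group in these results, encode the protein parts of the cytoplasmic ribosome.

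The labels were first checked against the alleles' own marks. The gene y (yellow, a cuticle pigmentation gene) read 9.67, 6.52 and 4.94 CPM in KG00226/NP6070 and 6.68, 2.94 and 5.83 CPM in NP6070/KG00226, where CPM is the count scaled to 1000000 counts per library after TMM normalisation by edgeR. In NP6070/NP6070, which lacks KG00226, y lay between 0.544 and 0.730 CPM on a scale set over all 39 libraries used. The gene w (white, an eye pigment transporter that the NP6070 insertion carries as its marker) read 229, 206 and 231 CPM in KG00226/NP6070 and 219, 193 and 231 CPM in NP6070/KG00226. In w1118/w1118 it lay between 0.699 and 3.41 CPM. In KG00226/KG00226 y lay between 15.2 and 27.6 CPM, and w was at 5.16 ± 1.45 CPM (SD, n = 3). All 6 libraries thus carried RNA of both marks, and neither mark was called between the orders (log2 change -0.52 ± 0.39 for y, edgeR adjusted p = 0.482, and -0.05 ± 0.10 for w, adjusted p = 0.793; ± is the standard error of the fit). The ovary identity was plain from vas, a germline RNA helicase, at 191 to 297 CPM, and Vm26Ab, an eggshell vitelline membrane protein, at 3334 to 5941 CPM. None of the 21 gut markers passed the filter on low counts (11 were at 0 in all 6 libraries and the largest count was 13), nor did any of 12 Y-linked genes (11 at 0, largest count 1).

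Depth was uneven. The 6 libraries held 3148547 to 10857835 gene counts with a median of 3912976, and NP6070/KG00226 replicate 2 was the deepest. That library also stood apart in its transposon RNA, so values without it are given where a call on a named feature or a list turned on it. It was singled out after its values were seen, so p-values from fits without it are a description. The ERCC spike-ins, RNAs added in equal amount to each sample, gave 388, 274 and 369 counts in KG00226/NP6070 and 515, 1149 and 827 in NP6070/KG00226. Gene counts per ERCC count were 8850, 12991 and 11562 against 6114, 9450 and 6246, which overlapped (difference of mean log2 -0.63, exact two-sided permutation p = 0.2, where 3 libraries against 3 cannot give a p below 0.1). Scaling to ERCC counts moved the median change of all features from -0.01 to -0.55 on the log2 scale, so changes below are relative to the bulk of ovarian RNA.

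sov itself was examined first. Its transcript (FBgn0029899, X:6756322-6770712, plus strand, BDGP6, release 6) read 143, 111 and 116 CPM in KG00226/NP6070 and 165, 173 and 192 CPM in NP6070/KG00226. Every NP6070/KG00226 library lay above every KG00226/NP6070 library. The log2 change, written throughout as NP6070/KG00226 over KG00226/NP6070, was 0.52 ± 0.11 (edgeR quasi-likelihood test, adjusted p = 0.0464; exact permutation p = 0.1). That call was lost with the ERCC pool as covariate (edgeR adjusted p = 0.0508), a block on replicate number (0.0784) or a trend on transcript length removed (0.0644). Leaving out replicate 2 or 3 of KG00226/NP6070, or replicate 1 or 3 of NP6070/KG00226, also lost it (0.106 to 0.185). Per 100 ERCC counts sov read 122, 142 and 134 against 105, 164 and 127, so the groups overlapped on that scale and the difference was -0.03 (exact permutation p = 0.9). Among the homozygotes sov stood at 115 ± 7.49 CPM in NP6070/NP6070, 138 ± 22.8 CPM in KG00226/KG00226 and 144 ± 10.0 CPM in w1118/w1118 (SD, n = 3 each). Over the 33 libraries of all other genotypes used, sov ran from 106 to 239 CPM. Of these, 12 lay above the lowest NP6070/KG00226 library. Of the 6 tested genes in the list of sov and its neighbours on the X, sov was the one called, beside 0.573% of all features called higher. The neighbours include Ork1, a potassium channel gene, at -0.17 ± 0.11 (adjusted p = 0.388).

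**Figure D1:**
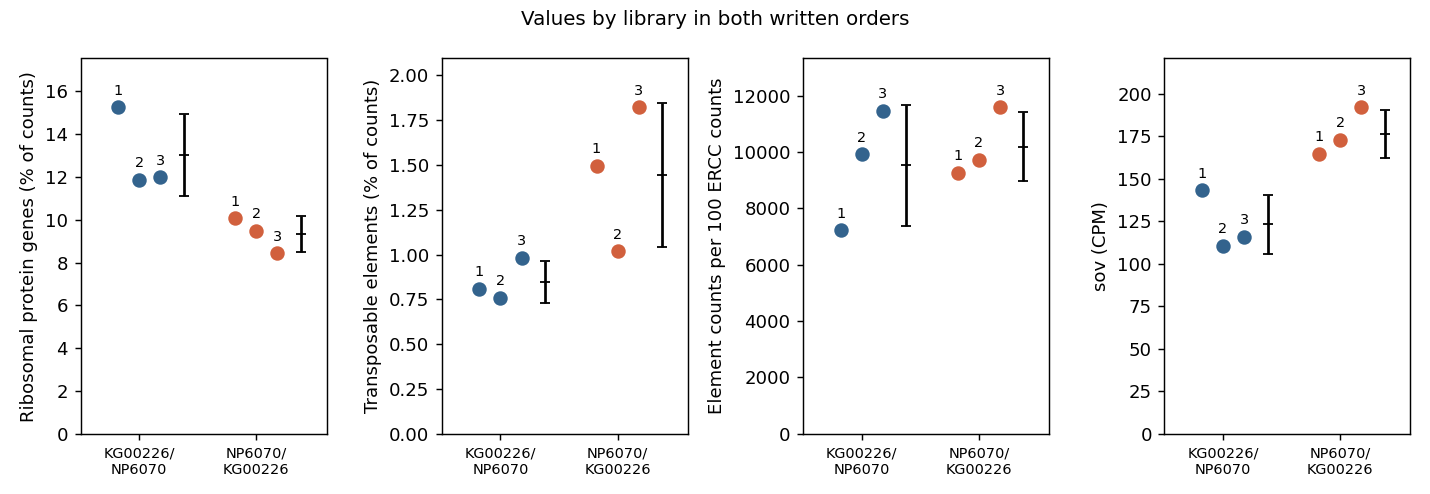
Values of the 6 libraries in both written orders: ribosomal protein genes as a percentage of gene and element counts, transposable elements as a percentage of the same counts, element counts per 100 ERCC counts, and sov in CPM. Dots are libraries with their replicate number, and bars show the mean ± SD of 3. Ribosomal protein, element and sov shares do not overlap between the orders (elements 0.758% to 0.981% against 1.02% to 1.82%), whereas element counts per 100 ERCC counts do (7218 to 11456 against 9274 to 11586). The 4 telomeric families make up most of the element share, and the share of LTR families alone overlaps (0.125% to 0.134% against 0.0919% to 0.309%).

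Of 7161 features tested (7091 genes and 70 element families), 131 differed between the orders, or 1.83%. There were 41 higher in NP6070/KG00226 (0.573%) and 90 lower (1.26%), and 5 of the higher and 12 of the lower changed over 2-fold. At an unadjusted p under 0.05 there were 1496 of the 7161, the background for list counts at that threshold below. The count rested on small numbers of libraries. Without KG00226/NP6070 replicate 2 or 3 it was 2 or 0, without NP6070/KG00226 replicate 1 or 3 it was 0 or 3, without NP6070/KG00226 replicate 2 it was 305, and without KG00226/NP6070 replicate 1 it was 141. DESeq2 called 323, among them 128 of the 131.

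**Figure D2:**
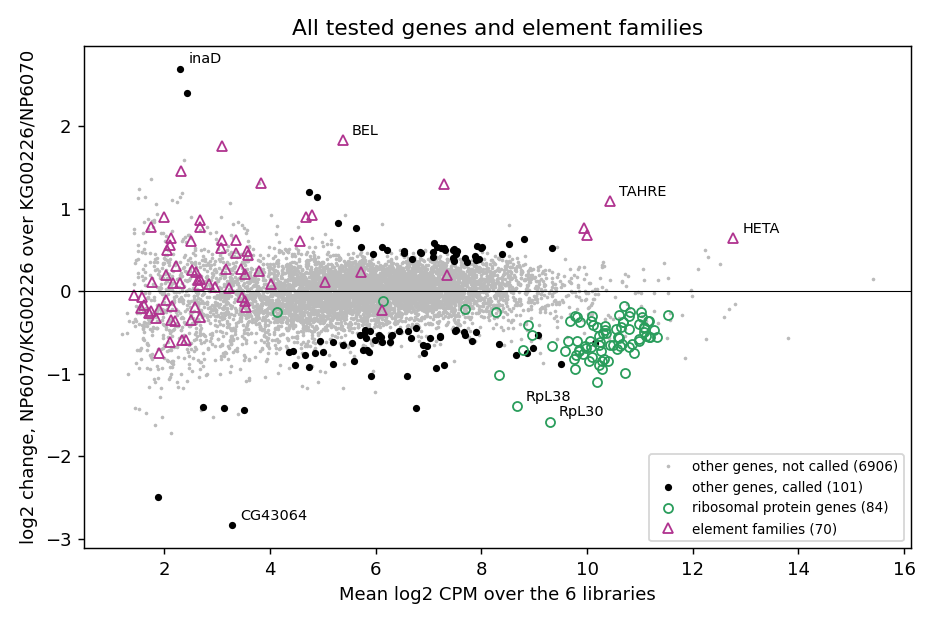
Log2 change (NP6070/KG00226 over KG00226/NP6070) against the mean log2 CPM of the 6 libraries for all 7161 tested features. Black dots are called genes other than ribosomal protein genes, green circles are the 84 ribosomal protein genes, called or not, and purple triangles the 70 element families. All 84 green circles lie below 0, from -1.58 to -0.12, and 47 of the 70 triangles lie above 0.

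Cytoplasmic ribosomal protein genes were lower in NP6070/KG00226. All 84 tested members of the list, which was drawn by symbol and therefore includes the relatives RpL24-like and RpLP0-like, had a log2 change below 0, with a median of -0.56 against -0.01 for all features. Of them 29 fell, or 18 of 50 large-subunit and 11 of 34 small-subunit genes, beside 1.26% of all features. In 70 of the 84, every NP6070/KG00226 library lay below every KG00226/NP6070 library, beside 12.5% of all features. Together they took 15.2%, 11.9% and 12.0% of gene and element counts in KG00226/NP6070 and 10.1%, 9.50% and 8.43% in NP6070/KG00226. The NP6070/KG00226 shares were the lower in every library, and KG00226/NP6070 replicate 1 was the highest of the 6.

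RpL30 (2L:19008031-19009306, minus strand), a large-subunit protein, had the smallest p of any gene. It read 1036, 874 and 917 CPM in KG00226/NP6070 and 328, 379 and 238 CPM in NP6070/KG00226. The groups lay far apart, and RpL30 fell by 1.58 on the log2 scale (SE 0.16, edgeR adjusted p = 0.00644). RpL38, another large-subunit protein, read 627, 567 and 576 CPM against 220, 305 and 147 CPM and changed by -1.39 ± 0.21 (adjusted p = 0.0248). RpL32, the reference gene of many fly expression assays, read 1882, 1417 and 1466 CPM against 804, 817 and 609 CPM and changed by -1.09 ± 0.16 (adjusted p = 0.0248). RpL36 read 1328, 1022 and 1115 CPM against 665, 580 and 564 CPM, a change of -0.94 ± 0.13 (adjusted p = 0.0248). None of these 4 genes overlapped between the orders. RpS14b changed by -1.01 ± 0.17 (adjusted p = 0.0316) and its near-identical copy RpS14a by -0.41 ± 0.17 (adjusted p = 0.204), and since reads of such copies may be shared, their separate values are uncertain. The smallest differences were those of RpL28 at -0.18 ± 0.17 (adjusted p = 0.591) and RpLP0-like at -0.12 ± 0.12 (adjusted p = 0.624).

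The count of called ribosomal protein genes moved with the libraries used. It was 18 without KG00226/NP6070 replicate 1, 0 to 2 without KG00226/NP6070 replicate 2 or 3 or NP6070/KG00226 replicate 1 or 3, and 34 without NP6070/KG00226 replicate 2. The log2 change was below 0 in 81 of 84 without KG00226/NP6070 replicate 1 (RpL28 and RpLP0-like were then above 0) and in 84 of 84 without any of the other libraries. Scaled to ERCC counts, 84 of 84 were below 0 and 62 were called, beside 596 of 7161 features called. On that scale all features had a median of -0.55, and ribosomal protein genes one of -1.08. Transcript length moved with the change across genes (Spearman rho 0.21 over 7031 genes with a length, a description, since genes are not independent). The longest transcript had a median of 5167 bases in called genes that rose, 1146.5 bases in those that fell, 882 bases in tested ribosomal protein genes and 2123 bases over all tested genes. Among genes of the same length class, ribosomal protein genes had the lower median. Under 600 bases it was -0.71 for 12 ribosomal protein genes and -0.18 for 195 others, from 600 to 1000 bases -0.50 for 42 and -0.06 for 702, and from 1000 to 2000 bases -0.55 for 29 and -0.04 for 2282. With the trend on length removed from each library, a setting chosen after the data were seen, 13 ribosomal protein genes and 55 features in all were called, and the ribosomal protein median was -0.47.

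**Figure D3:**
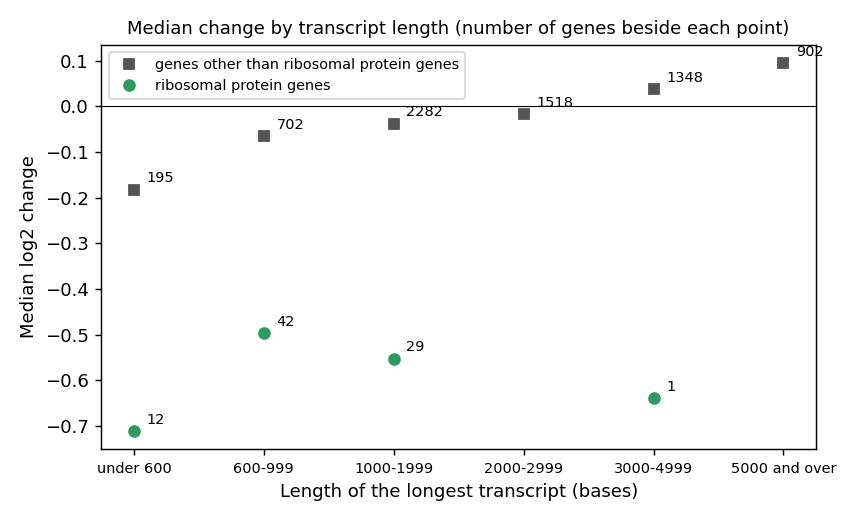
Median log2 change (NP6070/KG00226 over KG00226/NP6070) by length of the longest transcript, with the number of genes beside each point. Squares are genes other than ribosomal protein genes and run from -0.18 under 600 bases to 0.10 at 5000 bases and over, and circles are ribosomal protein genes, which lie lower in every class that holds any (a single gene in the class from 3000 to 5000 bases).

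Some nuclear genes of mitochondrial respiration were also lower. In the list of nuclear oxidative phosphorylation genes 3 of 64 tested members fell, beside 1.26% of all features. They were ND-MLRQ (-0.89 ± 0.13, adjusted p = 0.0248), ND-MWFE (-0.73 ± 0.14, adjusted p = 0.0357) and ND-B14.7 (-0.53 ± 0.11, adjusted p = 0.0464). All 3 bear the symbols of subunits named for mitochondrial complex I. ND-MLRQ read 202, 200 and 210 CPM in KG00226/NP6070 and 96.5, 135 and 95.1 CPM in NP6070/KG00226. The list's median was -0.20, and 31 of the 64 lay lower with no overlap between the groups, beside 12.5% of all features. Genes under 600 bases other than ribosomal protein genes had a median of -0.18. With the length trend removed, the calls on ND-MWFE and ND-B14.7 were lost (edgeR adjusted p = 0.0534 and 0.0909). DESeq2 called 9 members lower, beside 323 of 7161 features called in either direction. A joint fit of 30 libraries called 13 lower, beside 304 of 7751 features. Without NP6070/KG00226 replicate 2, 7 were called lower, among them the cytochrome c oxidase subunit COX8 (-0.65 ± 0.11, adjusted p = 0.0114), whereas ND-B14.7 was not (adjusted p = 0.0503). Outside the naming rule, and chosen after their values were seen for their small p, eEF5, a translation factor that helps ribosomes past difficult stretches, changed by -0.89 ± 0.11 (adjusted p = 0.0225), and crc, the fly ATF4-type transcription factor of the amino acid and stress response, by -1.02 ± 0.11 (adjusted p = 0.00644). crc read 121, 138 and 132 CPM against 58.9, 73.1 and 58.7 CPM, and Thor, the translation inhibitor 4E-BP, read 71.0, 67.8 and 86.2 CPM against 46.1, 33.5 and 55.6 CPM (-0.76 ± 0.18, adjusted p = 0.0591; -0.55 ± 0.14 and adjusted p = 0.0479 without NP6070/KG00226 replicate 2). In both genes every NP6070/KG00226 library lay below every KG00226/NP6070 library.

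Transposable element RNA took a larger share of the library in NP6070/KG00226. It was 0.809%, 0.758% and 0.981% of gene and element counts in KG00226/NP6070 and 1.49%, 1.02% and 1.82% in NP6070/KG00226. The groups did not overlap, and the difference of mean log2 share was 0.73 (exact two-sided permutation p = 0.1, the smallest possible). Per 100 ERCC counts the values were 7218, 9916 and 11456 against 9274, 9725 and 11586, which overlapped (difference 0.12, exact permutation p = 0.8). Of the 70 families tested, 1 was called, beside 1.83% of all features. A change above 0 was seen in 47, with a median of 0.20 against -0.01 for all features. Scaled to ERCC counts, 21 of 70 were above 0 and the median was -0.36, against -0.55 for all features. At an unadjusted p under 0.05 there were 11 of the 70 families, beside 1496 of 7161 features. DESeq2 called 5 of the 70, beside 323 of 7161 features.

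The called family was TAHRE, one of the retrotransposons that build fly telomeres. It read 850, 719 and 1081 CPM in KG00226/NP6070 and 1895, 1301 and 2442 CPM in NP6070/KG00226, and rose by 1.09 ± 0.22 on the log2 scale (edgeR adjusted p = 0.0421). That call was lost in the joint fit of 30 libraries (adjusted p = 0.134, where R1_DM was the 1 element called, adjusted p = 0.0488), with the ERCC pool as covariate (0.0508), with the length trend removed (0.0529), scaled to ERCC counts (log2 change 0.49, 0.207) and without any 1 of the 5 libraries other than NP6070/KG00226 replicate 2 (0.0742 to 0.170). HETA, the most abundant telomeric element, read 5258, 4753 and 6318 CPM against 8049, 6800 and 10638 CPM (0.64 ± 0.20, adjusted p = 0.115). TART read 738, 596 and 851 CPM against 1215, 946 and 1569 CPM (0.77 ± 0.19, adjusted p = 0.0653; 0.94 ± 0.16 and adjusted p = 0.0124 without NP6070/KG00226 replicate 2). In these 3 families every NP6070/KG00226 library lay above every KG00226/NP6070 library, beside 13.8% of all features. The median of the 4 telomeric families was 0.71, and 0.13 scaled to ERCC counts. Across the other genotypes, TAHRE stood at 1652 ± 283 CPM in NP6070/NP6070, at 271 ± 148 CPM in KG00226/KG00226 and at 5.59 ± 2.52 CPM in w1118/w1118 (SD, n = 3 each). HETA was higher in each NP6070/KG00226 library than in any of the 33 libraries of the other 11 genotypes, whose highest value was 6253 CPM.

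LTR retrotransposons split the NP6070/KG00226 libraries. Replicates 1 and 3 had 24 and 29 of the 39 tested LTR families above the range of the KG00226/NP6070 libraries, whereas replicate 2 had 3 above it and 22 below it. BATUMI, a family of the BEL-Pao kind, read 95.7, 85.6 and 88.1 CPM in KG00226/NP6070 and 310, 66.2 and 297 CPM in NP6070/KG00226. BEL read 21.1, 16.2 and 16.5 CPM against 86.8, 10.7 and 99.9 CPM, and Gypsy12 read 730, 839 and 780 CPM against 1903, 491 and 1370 CPM. Replicate 2 was the lowest of all 6 libraries in each of these 3 families. Over all 6 libraries none of the LTR families was called, with BATUMI at 1.30 ± 0.44 (adjusted p = 0.133) and QUASIMODO2, the family with the smallest p, at 1.76 ± 0.41 (adjusted p = 0.0567). An unadjusted p under 0.05 was seen in 6 of the 39, beside 1496 of 7161 features, and DESeq2 called 2. Without replicate 2, 13 element families rose, 9 of them LTR families, beside 305 of 7216 features called in either direction. BEL was then at 2.39 ± 0.14 (adjusted p = 8.93e-06), BATUMI at 1.76 ± 0.09 (adjusted p = 3.10e-06), TAHRE at 1.30 ± 0.18 (adjusted p = 0.00512) and Gypsy12 at 1.06 ± 0.15 (adjusted p = 0.00579). Replicate 2 was left out for its low values in such families, so these calls depend on that choice and are a description. Scaled to ERCC counts, with all 6 libraries, Gypsy12 was at -0.0065.

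The same library stood apart in AGO3 and Sox21b. AGO3, a Piwi-family protein that amplifies piRNAs in the germline, read 36.5, 52.4 and 48.4 CPM in KG00226/NP6070 and 17.9, 53.1 and 20.6 CPM in NP6070/KG00226. Sox21b, a Sox-family transcription factor gene, read 1.81, 3.12 and 2.35 CPM against 10.0, 0.551 and 13.3 CPM. In AGO3, replicate 2 of NP6070/KG00226 lay beside the KG00226/NP6070 libraries, and in Sox21b it lay below them. AGO3 changed by -0.50 ± 0.34 over all 6 libraries (adjusted p = 0.437) and by -1.24 ± 0.18 without replicate 2 (adjusted p = 0.00649), and Sox21b by 1.59 ± 0.89 (adjusted p = 0.345) and by 2.27 ± 0.35 (adjusted p = 0.00699). The values without replicate 2 are likewise a description. In KG00226/KG00226 AGO3 stood at 127 ± 3.37 CPM and in NP6070/NP6070 at 24.1 ± 4.14 CPM (SD, n = 3 each). Sox21b reached no more than 1.58 CPM in the 33 libraries of the other 11 genotypes. In ribosomal protein share, TAHRE and sov, replicate 2 lay on the side of its own group.

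**Figure D4:**
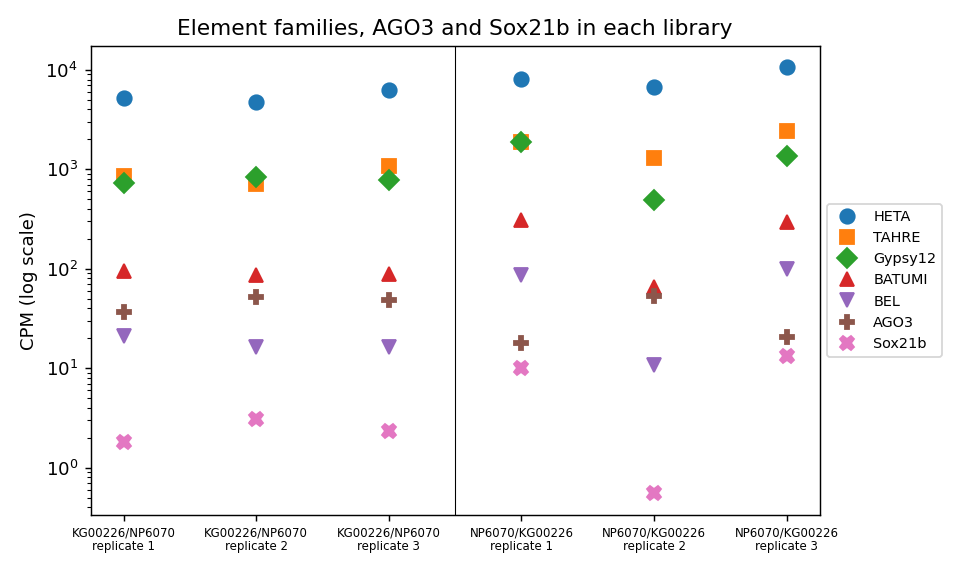
CPM on a log scale of 5 element families, AGO3 and Sox21b in each of the 6 libraries. HETA and TAHRE are higher in all 3 NP6070/KG00226 libraries, whereas Gypsy12, BATUMI and BEL are high in replicates 1 and 3 and lowest in replicate 2 (BEL 86.8, 10.7 and 99.9 CPM), and AGO3 is low in replicates 1 and 3 and 53.1 CPM in replicate 2.

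The medians of the remaining element classes lay near 0. The 18 tested non-LTR families outside the telomere had a median of 0.01, with R1_DM, which inserts in ribosomal RNA genes, at 1.46 ± 0.36 (adjusted p = 0.0653), BS at 0.62 ± 0.25 (adjusted p = 0.195) and the I element (I_DM), the family behind a classic difference between reciprocal crosses, at 0.44 ± 0.31 (adjusted p = 0.452). I_DM read 13.9, 6.52 and 9.17 CPM against 13.4, 9.65 and 17.7 CPM, so the orders overlapped. The 6 DNA element families had a median of -0.07, with TC1_DM at -0.59 ± 0.32 (adjusted p = 0.327), TRANSIB3 at 0.49 ± 0.47 (adjusted p = 0.591) and HOBO at -0.19 ± 0.27 (adjusted p = 0.732). The P-element, whose sequences carry both sov insertions, had 2 or fewer counts in each library on one of its entries and 0 on the other two, so it was not tested. The LTR families Copia, Gypsy and MDG3 changed by 0.27 ± 0.32, 0.87 ± 0.51 and -0.17 ± 0.48 (adjusted p = 0.663, 0.368 and 0.873), and MDG3 was at 0.34 without KG00226/NP6070 replicate 1. DNAREP1_DM and Bica, of the 3 remaining families, changed by -0.23 ± 0.11 and 0.62 ± 0.38 (adjusted p = 0.267 and 0.379). Over the 6 libraries no family of the non-LTR, DNA or remaining classes was called by edgeR or DESeq2, and 2 non-LTR families had an unadjusted p under 0.05. Without NP6070/KG00226 replicate 2, R1_DM (1.61 ± 0.39, adjusted p = 0.0430) and Bica (1.02 ± 0.25, adjusted p = 0.0428) were called. HETA, TAHRE, TART and the families listed by name hold many near-identical copies, and how reads that match several copies were counted is not given in the sources used here.

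Transcripts of the mitochondrial genome, which is inherited from the mother, took 4.10%, 5.43% and 5.60% of gene and element counts in KG00226/NP6070 and 4.48%, 7.07% and 5.43% in NP6070/KG00226. The shares overlapped (difference of mean log2 0.16, exact permutation p = 0.5; -0.02 without NP6070/KG00226 replicate 2, and -0.46 per ERCC count). Within the mitochondrial RNA, single transcripts moved in opposite directions. mt:CoII, a subunit of cytochrome c oxidase, read 517, 528 and 539 CPM against 701, 810 and 766 CPM and rose by 0.52 ± 0.10 (edgeR adjusted p = 0.0356). mt:ATPase6, a subunit of ATP synthase, read 515, 653 and 710 CPM against 352, 397 and 413 CPM and changed by -0.69 ± 0.13 (adjusted p = 0.0356). Neither overlapped between the orders. The call on mt:ATPase6 was lost in the joint fit of 30 libraries (adjusted p = 0.0525). mt:ND3 was at 0.53 ± 0.18, mt:ND2 at -0.94 ± 0.36 and mt:ND1 at -0.32 ± 0.20 (adjusted p = 0.137, 0.179 and 0.410), all subunits of complex I. Scaled to ERCC counts mt:CoII was at -0.01 and mt:ND3 at -0.0064, whereas the ratio of mitochondrial transcripts within a library does not depend on the scaling.

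The ratios of both called transcripts to mt:CoI, a further oxidase subunit, were followed across genotypes, as a description chosen after the values were seen. mt:CoII counts were 14.9%, 12.4% and 12.5% of mt:CoI counts in KG00226/NP6070 and 21.3%, 17.6% and 18.1% in NP6070/KG00226. The lowest NP6070/KG00226 library lay above the highest KG00226/NP6070 library, and replicate 2 of NP6070/KG00226 lay with its own group. In KG00226/KG00226 the value was 15.3% ± 1.11, in NP6070/NP6070 19.0% ± 1.499 and in w1118/w1118 19.1% ± 1.24 (SD, n = 3 each). Over the 12 libraries with KG00226 written first it ran from 12.4% to 16.4%, and over the 27 with another allele written first from 16.1% to 21.7%. Of the 12, 10 lay below all of the 27, and of the 27, 25 lay above all of the 12. The other 4 libraries lay where the ranges overlap. mt:ATPase6 counts were 14.8%, 15.4% and 16.5% of mt:CoI counts in KG00226/NP6070 and 10.7%, 8.62% and 9.77% in NP6070/KG00226, again with no overlap. Across the 39 libraries this ratio did not separate by the allele written first: it ran from 13.97% to 18.2% with KG00226 first and from 10.0% to 20.3% with sov2 first, which overlap. With NP6070 first it ran from 6.21% to 12.5% and with w1118 first from 9.45% to 13.02%.

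**Figure D5:**
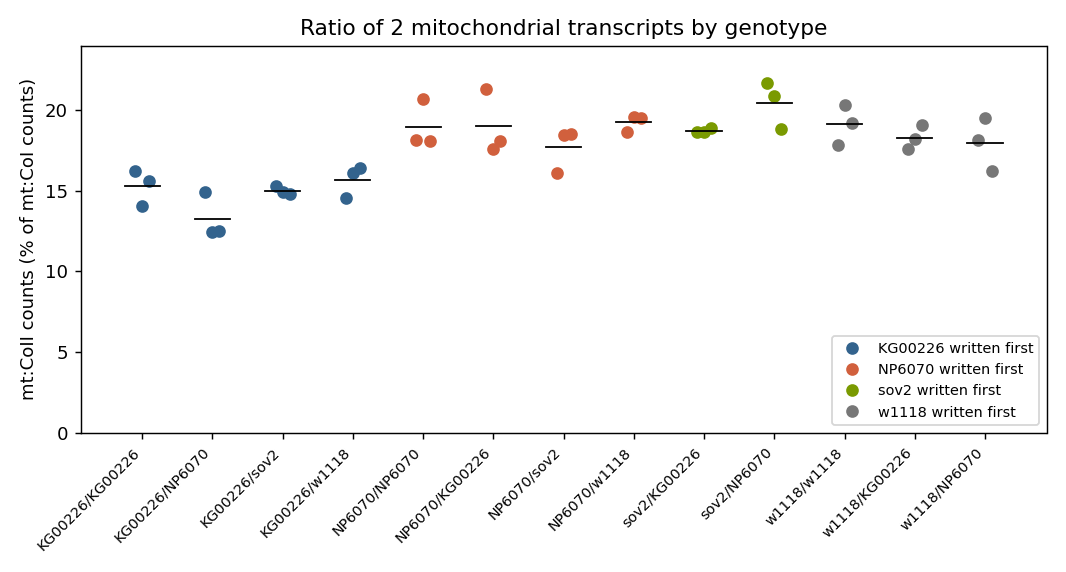
mt:CoII counts as a percentage of mt:CoI counts in 39 libraries of 13 genotypes. Dots are libraries, coloured by the allele written first, and short lines are means of 3. Libraries with KG00226 written first lie between 12.4% and 16.4%, and the others between 16.1% and 21.7%.

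Single genes with large changes came from several roles. inaD, a scaffold protein of photoreceptor signalling, rose by 2.69 ± 0.45 (adjusted p = 0.0316), from counts of 1, 5 and 6 to 27, 62 and 43. It lay at 5.57 to 8.05 CPM in NP6070/KG00226 and reached no more than 1.14 CPM in the 33 libraries of the other 11 genotypes. CR40005, a noncoding gene near the centromere of 2L, rose by 2.41 ± 0.40 (adjusted p = 0.0316) on 6 or fewer counts in each KG00226/NP6070 library. Hsp70Ba and Hsp27, heat shock chaperones, rose by 1.20 ± 0.26 and 0.64 ± 0.11 (adjusted p = 0.0495 and 0.0329), and Hsp70Ba is one of several near-identical Hsp70 copies. They were the 2 called members among 16 tested heat shock genes, beside 0.573% of all features called higher, and the list's median was 0.03. In the joint fit of 30 libraries the calls on Hsp70Ba and CR40005 were lost (edgeR adjusted p = 0.240 and 0.106). That on Hsp70Ba was also lost with the ERCC pool as covariate (0.0570). DESeq2 gave no adjusted p for inaD or CR40005. Hmr (Hybrid male rescue), a heterochromatin protein, read 29.0, 24.7 and 28.4 CPM against 46.5, 48.3 and 50.9 CPM and rose by 0.83 ± 0.12 (adjusted p = 0.0248). zld, the maternal transcription factor that opens the zygotic genome, rose by 0.57 ± 0.11 (adjusted p = 0.0360). The other largest rises were CG10011 (1.14 ± 0.20, adjusted p = 0.0329), the RNA-binding protein gene cpo (0.77 ± 0.11, adjusted p = 0.0248), RhoGAP19D (0.58 ± 0.11, adjusted p = 0.0356) and the calcineurin subunit gene CanA-14F (0.55 ± 0.09, adjusted p = 0.0289).

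Among falls outside the ribosomal protein genes, CG43064 changed most, from 7.25, 24.1 and 22.6 CPM to 1.52, 1.01 and 5.47 CPM (-2.83 ± 0.59, adjusted p = 0.0448). The groups did not overlap. CG43064 stood at 17.6 ± 3.87 CPM in KG00226/KG00226 and 0.835 ± 0.437 CPM in NP6070/NP6070 (SD, n = 3 each). The signal recognition particle RNA 7SLRNA:CR42652, which has no usual polyA tail, changed by -2.49 ± 0.45 (adjusted p = 0.0329) from 3.32, 7.94 and 7.99 CPM to 0.911, 1.38 and 0.911 CPM. Ilp8, the insulin-like peptide that mature follicles secrete, read 95.7, 143 and 238 CPM against 44.0, 71.9 and 59.6 CPM (-1.42 ± 0.28, adjusted p = 0.0385). Every NP6070/KG00226 library was the lower. The cytochrome P450 gene Cyp6a17 (-1.43 ± 0.28, adjusted p = 0.0360), CG12517 (-1.41 ± 0.27, adjusted p = 0.0359), CG7194 (-1.40 ± 0.27, adjusted p = 0.0360) and the alkaline phosphatase gene Alp4 (-1.03 ± 0.15, adjusted p = 0.0248) completed the largest falls. In the joint fit of 30 libraries the calls on Ilp8 and CG12517 were lost (edgeR adjusted p = 0.107 and 0.0707). DESeq2 gave no adjusted p for 7SLRNA:CR42652.

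Few genes of transposon control were called. In the piRNA pathway 2 of 37 tested genes fell, beside 1.26% of all features, and the median was -0.05. They were Gasz (-0.59 ± 0.10, adjusted p = 0.0329), which tethers piRNA processing to mitochondria, and vls (-0.57 ± 0.10, adjusted p = 0.0329), the partner of the methyltransferase that marks Piwi proteins. Gasz read 72.2, 83.9 and 72.6 CPM against 52.8, 52.1 and 47.6 CPM. Of 29 heterochromatin genes 1, Hmr, rose, beside 0.573% of all features (DESeq2 called 3 higher), and 25 had a change above 0, with a median of 0.15, and Incenp, a chromosomal passenger protein, was at 0.39 ± 0.09 (adjusted p = 0.0560). Scaled to ERCC counts the heterochromatin median was -0.40 and Incenp was at -0.15.

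Egg-chamber genes were mixed. Of 5 yolk genes 1 fell, beside 1.26% of all features. It was Yp3, a yolk protein, which read 1572, 1392 and 1147 CPM against 881, 927 and 864 CPM (-0.62 ± 0.13, adjusted p = 0.0464). Yp2 and Yp1 were at -0.57 ± 0.14 and -0.39 ± 0.15 (adjusted p = 0.0685 and 0.167). The summed yolk genes were at 9452 to 11086 CPM in KG00226/NP6070 and at 6784 to 7814 CPM in NP6070/KG00226, with no overlap. No gene was called among 21 chorion, 13 vitelline membrane, 22 follicle, 19 early germline or 18 ecdysone genes. In these lists 5, 3, 4, 3 and 5 genes had an unadjusted p under 0.05, beside 1496 of 7161 features. DESeq2 called 4 chorion genes lower, and 1 vitelline membrane gene in each direction, beside 323 of 7161 features called in either direction. Without NP6070/KG00226 replicate 2, the ecdysone-response receptor gene Hr4 was called (0.77 ± 0.18, adjusted p = 0.0343). The leading members were yellow-g (-0.74 ± 0.17, adjusted p = 0.0567) and CG15570 (-0.67 ± 0.17, adjusted p = 0.0690) for the chorion, fs(1)M3 (-0.47 ± 0.11, adjusted p = 0.0595) and Vm26Ab (0.50 ± 0.17, adjusted p = 0.126) for the vitelline membrane, slow and Past1 (-0.79 ± 0.29 and -0.31 ± 0.08, adjusted p = 0.156 and 0.0782) for follicle cells, vas and Sxl (0.30 ± 0.13 and -0.21 ± 0.09, adjusted p = 0.208 and 0.194) for the early germline, and spo and Hr4 (-0.80 ± 0.24 and 0.61 ± 0.19, adjusted p = 0.106 and 0.115) for ecdysone. The lists' medians lay between -0.15 (chorion) and 0.26 (vitelline membrane; -0.33 scaled to ERCC counts). Summed vitelline membrane genes were at 13860 to 19934 CPM against 20552 to 22056 CPM, and summed chorion genes at 18821 to 36426 CPM against 23816 to 26558 CPM. Among 34 oocyte and maternal genes zld was the called one, beside 0.573% of all features called higher, and the median was 0.01.

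Cell division genes lay mostly above 0, and none was called. Of 29 replication and mitosis genes 26 were above 0, 18 lay higher with no overlap (13.8% of all features did) and the median was 0.16, led by fzy, the Cdc20 activator of mitotic exit (0.40 ± 0.10, adjusted p = 0.0630), and the origin-licensing gene Cdc6 (0.35 ± 0.09, adjusted p = 0.0830). By edgeR 13 had an unadjusted p under 0.05, beside 1496 of 7161 features. DESeq2 called 2 of the list higher, beside 323 of 7161 features called in either direction. Scaled to ERCC counts the median was -0.39 and fzy and Cdc6 were at -0.16 and -0.19. Of 22 meiosis genes none was called by either tool and 2 had an unadjusted p under 0.05, with the spindle motor ncd at 0.42 ± 0.11 (adjusted p = 0.0705) and the cohesin gene SMC1 at 0.20 ± 0.08 (adjusted p = 0.189), which were at -0.15 and -0.34 scaled to ERCC counts. Without NP6070/KG00226 replicate 2, c(3)G, a synaptonemal complex protein, was called (-0.59 ± 0.14, adjusted p = 0.0430).

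Markers of other cell types that a dissected ovary can hold were counted as well, and in bulk RNA fewer cells of a type and less RNA per cell cannot be told apart. Of 23 muscle genes 19 were above 0 with a median of 0.37 (-0.14 scaled to ERCC counts), and edgeR called none and DESeq2 1. An unadjusted p under 0.05 was seen in 8, beside 1496 of 7161 features. The summed level of the muscle genes overlapped, at 1616 to 1730 CPM against 1608 to 1894 CPM. Mhc, the muscle myosin heavy chain, read 33.5, 32.3 and 21.4 CPM against 57.1, 40.98 and 67.98 CPM (0.92 ± 0.22, adjusted p = 0.0591; 1.13 ± 0.18 and adjusted p = 0.00829 without NP6070/KG00226 replicate 2), and sls, the fly titin, was at 0.79 ± 0.26 (adjusted p = 0.122). Without that replicate 3 muscle genes were called higher, and in the neuron list unc-13 was called lower (-0.98 ± 0.15, adjusted p = 0.00699). Among the markers of hemocytes and basement membrane, 11 were tested and 9 were not above 0, none was called by either tool, and the summed level was 1103 to 1868 CPM against 684 to 1305 CPM, with the laminins LanB1 and LanA at -0.66 ± 0.26 and -0.57 ± 0.19 (adjusted p = 0.189 and 0.133). Summed fat body genes were at 3244 to 4126 CPM against 2802 to 2945 CPM. That list includes the yolk gene Yp1, which made up most of the sum, at 2474 to 3424 CPM against 2144 to 2243 CPM (scaled over the 39 libraries). The lipid droplet protein Lsd-1 was at -0.85 ± 0.34 (adjusted p = 0.194). No fat body, neuron or oviduct and sperm storage gene was called, of 7, 3 and 4 tested, with 2, 1 and 2 at an unadjusted p under 0.05. DESeq2 called 1 gene of the fat body list lower, which was Yp1 (DESeq2 adjusted p = 0.0296). The neuron markers elav and Syx1A were at -0.56 ± 0.36 and 0.29 ± 0.11 (adjusted p = 0.405 and 0.157), and Oamb and Hr39 of the oviduct list at -0.64 ± 0.26 and 0.28 ± 0.10 (adjusted p = 0.197 and 0.136). The part of these tissues in the gene results was not tested.

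The order effect of KG00226 with NP6070 was set beside others in a joint fit of 30 libraries. The fit also held NP6070 and KG00226 with w1118 and with sov2 in both orders. In that fit 556 of 7751 features (7.17%) differed between NP6070/KG00226 and KG00226/NP6070. The order effect called 1293 (16.7%) for NP6070/w1118 over w1118/NP6070, 22 (0.284%) for NP6070/sov2 over sov2/NP6070, 523 (6.75%) for w1118/KG00226 over KG00226/w1118 and 143 (1.84%) for sov2/KG00226 over KG00226/sov2. The effect for KG00226 with NP6070 differed from the mean of the other 4 order effects in 92 features (1.19%), of which 20 were higher and 72 lower. KG00226/w1118 replicate 3 stood apart from its group (BATUMI 311 CPM, against 4.96 and 2.60 CPM), and without it there were 78. Ribosomal protein genes made up 28 of the 72, out of 85 tested, with a median difference of -0.47, and BEL was the 1 element called. Their median order effects were -0.55 for NP6070/KG00226 (56 lower), -0.05 for NP6070/w1118 (1 higher, 5 lower), -0.13 for NP6070/sov2 (none called), -0.28 for w1118/KG00226 (none called) and 0.16 for sov2/KG00226 (1 higher). RpL30 was at -1.45 ± 0.16 in the difference (edgeR adjusted p = 8.78e-06). If each allele written first had a fixed additive effect, the mean of the other 4 would be smaller in size than the effect of this pair. A difference from that mean therefore does not show an effect particular to KG00226 with NP6070.

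Levels in the other genotypes are given as a description. RpL30 stood at 735 ± 55.8 CPM in KG00226/KG00226, 444 ± 11.5 CPM in NP6070/NP6070 and 1007 ± 59.4 CPM in w1118/w1118 (SD, n = 3 each). All 33 libraries of the other 11 genotypes lay above the lowest NP6070/KG00226 library, at 308 CPM or more. On the same scale NP6070/KG00226 ran from 233 to 370 CPM, so the ranges overlapped. Ribosomal protein genes took 9.33% ± 0.834 of counts in NP6070/KG00226, 13.03% ± 1.92 in KG00226/NP6070, 12.4% ± 0.847 in NP6070/NP6070 and 13.6% ± 0.912 in KG00226/KG00226 (SD, n = 3 each). NP6070/sov2 came nearest to NP6070/KG00226, at 10.46% ± 0.327 and a range of 10.1% to 10.8%, beside 8.43% to 10.07%. Other genotypes with NP6070 were at 11.4% ± 0.673 (sov2/NP6070), 11.8% ± 0.252 (NP6070/w1118) and 11.9% ± 0.618 (w1118/NP6070). The 131 called features had the sign of NP6070/NP6070 minus KG00226/KG00226 in 101 cases (77.1%, beside 57.9% of all features). They had the sign of the order effect of NP6070/w1118 in 112 cases (85.5%, beside 61.8%), of NP6070/sov2 in 95 (72.5%, beside 62.4%), of w1118/KG00226 in 113 (86.3%, beside 65.0%) and of sov2/KG00226 in 24 (18.3%, beside 36.9%). These comparisons share alleles but no library with the 6, and the counts are a description with no test.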

How the data were processed

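Ovarian polyA RNA was sequenced by the submitters in stranded libraries of 50 bp single-end reads, with 10 pg of ERCC spike-ins added to 200 ng of total RNA. Per the labels the reads were mapped to release 6.21 of the genome, and HTSeq 0.7.2, HISAT2 2.0.5 and CASAVA 1.8.2 are listed in the submitters' processing notes. The deposited values are counts per gene, element family and spike-in, with no normalisation. Files of 39 libraries were read: the 6 compared and 33 of 11 related genotypes (2884610 to 13164806 gene counts). The 5 counting summaries, 16.0% to 21.5% of the reads in the 6 libraries, and the 96 ERCC entries were kept out of library sizes and tests. Of 17493 gene identifiers 17366 were found in the release 6 annotation (BDGP6), sov by its symbol. Identical counts were found in 0 pairs of libraries.

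The 6 libraries were fitted alone with edgeR 4.0.16 in R 4.3.3 (TMM, default filterByExpr, quasi-likelihood F test, Benjamini-Hochberg over all features, calls at an adjusted p under 0.05). CPM are per 1000000 TMM-scaled counts of the tested gene and element entries. The difference between order effects came from 1 fit of 30 libraries with a coefficient per genotype. Intervals and p-values measure the spread between the libraries, which the series describes as biological replicates. On simulated counts for this comparison (7119 features) the fit recovered 28% of features changed by 0.5 on the log2 scale and 89% of those changed by 1, with 6 false calls. Features were drawn independently, with no shift shared by many features of a library. The false calls of the fit to the real counts were therefore not estimated. Alternatives were DESeq2 1.42.0, other scalings and filters, a block on replicate number, the ERCC pool as a covariate (78A for replicate 1 and 78B for replicates 2 and 3 of both groups), the joint fit, and each library left out. The removal of the length trend was chosen after the data were seen. Named features were sov, the stock marks, a set of well-known element families, the 5 mitochondrial genes with the smallest p, the 10 largest rises and 10 largest falls among called genes with no overlap, and 2 or more leading members of each gene list. RpS14a, RpS14b, RpL28, RpLP0-like, BEL, Gypsy12, crc, eEF5, COX8, c(3)G, unc-13 and vir fall outside this rule and were chosen after their values were seen. Members and lists were chosen with earlier results of these data known.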

Additional observations from a re-analysis of the deposited data

Results flagged for a closer look

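There were 17 named features with an order effect for KG00226 with NP6070 that differed from the mean of the 4 other order effects of KG00226 and NP6070 (edgeR quasi-likelihood test in the joint fit of 30 libraries, adjusted over 7751 features). Values are differences of log2 changes ± SE. Those below 0 were RpL30 (-1.45 ± 0.16, adjusted p = 8.78e-06), RpL38 (-1.33 ± 0.22, adjusted p = 0.00447), RpL32 (-0.90 ± 0.19, adjusted p = 0.0207), RpL36 (-0.67 ± 0.15, adjusted p = 0.0260), RpS14b (-0.87 ± 0.22, adjusted p = 0.0483), eEF5 (-0.75 ± 0.16, adjusted p = 0.0207), crc (-0.76 ± 0.19, adjusted p = 0.0395), ND-MLRQ (-0.81 ± 0.15, adjusted p = 0.0149), ND-MWFE (-0.75 ± 0.16, adjusted p = 0.0253), ND-B14.7 (-0.44 ± 0.11, adjusted p = 0.0466), vls (-0.54 ± 0.11, adjusted p = 0.0187) and Gasz (-0.53 ± 0.13, adjusted p = 0.0384). Those above 0 were BEL (2.84 ± 0.73, adjusted p = 0.0483), Mhc (1.46 ± 0.32, adjusted p = 0.0253), CG10011 (1.09 ± 0.22, adjusted p = 0.0153), cpo (0.88 ± 0.19, adjusted p = 0.0253) and sov (0.41 ± 0.10, adjusted p = 0.0398). Mhc and BEL were at 0.92 and 1.83 in the pair alone and were not called there. The 4 other order effects of BEL were -0.84 (NP6070/w1118), -0.55 (NP6070/sov2), -2.67 (w1118/KG00226) and 0.08 (sov2/KG00226). The largest in size came from the pair that holds KG00226/w1118 replicate 3, which stood apart in its element RNA. As said of the joint fit, a difference from the mean of the 4 others does not show an effect particular to this pair.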

How the results depend on the processing

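The count of 131 calls (41 higher, 90 lower, 1 element, 29 ribosomal protein genes) depended on the fit. It was 323 with DESeq2 (106 higher, 217 lower, 5 elements, 58 ribosomal protein genes), 596 scaled to ERCC counts (3 higher, 593 lower, 62 ribosomal protein genes), 584 with no filter (229 higher, 355 lower, 12 elements, 56 ribosomal protein genes) and 556 in the joint fit (252 higher, 304 lower, 56 ribosomal protein genes). With the length trend removed it was 55 (15 higher, 40 lower, 0 elements, 13 ribosomal protein genes), and with the ERCC pool as covariate 0 elements were called. The difference between order effects had 92 calls and 186 with DESeq2. Leaving out each library gave 0 to 305 calls, 0 to 123 higher, 0 to 182 lower, 0 to 13 elements and 0 to 34 ribosomal protein genes. It gave 0.55 to 0.97 for the log2 difference of element share, -0.016 to 0.31 for mitochondrial share and 0.45 to 0.64 for sov. Per ERCC count the mitochondrial difference was -0.46 and that of sov -0.028. The causes were not tested.

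Scaled to ERCC counts these log2 changes reversed: sov -0.0046, Copia -0.31, I_DM -0.072, TRANSIB3 -0.030, mt:CoII -0.014, mt:ND3 -0.0064, Incenp -0.15, Syx1A -0.24, Hr39 -0.26, vas -0.24, Vm26Ab -0.066, spz -0.21, fzy -0.16, Cdc6 -0.19, ncd -0.15, SMC1 -0.34, Gypsy12 -0.0065, mtTFB2 -0.041 and His2Av -0.28. Leaving out each library in turn, MDG3 ranged from -0.54 to 0.34 (the latter without KG00226/NP6070 replicate 1), RpLP0-like from -0.21 to 0.031 and RpL28 from -0.32 to 0.0055 (the highest without that same library) and w from -0.11 to 0.021 (the latter without NP6070/KG00226 replicate 2). Of the other values of named features, 1175 kept direction and side of the threshold, 187 lost a call and 96 gained one.

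A fit with the replicate number as a block gave 92 calls (22 higher, 70 lower, 3 elements), 74 of them among the 131. Nothing in the labels pairs the replicates, and the correlations of same-numbered libraries' deviations were 0.0039, 0.025 and 0.095. The ERCC scale rests on 274 to 1149 counts per library.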

Other observations

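Over the 6 libraries further gene lists held no call by edgeR. Of all 7161 features 1496 had an unadjusted p under 0.05 and DESeq2 called 323. Of 10 antiviral RNA interference genes 3 had an unadjusted p under 0.05 and DESeq2 called 1 lower. Among them pst was at -0.97 (adjusted p = 0.0653; -1.19 and 0.0210 without NP6070/KG00226 replicate 2) and AGO2, the siRNA effector, at -0.24. Of 17 apoptosis and stress genes 4 had an unadjusted p under 0.05 and DESeq2 called 1 lower, with GstE1, a glutathione transferase, at -0.30. Of 10 immune genes, 14 sex determination genes, 16 mitochondrial maintenance genes and 4 histone genes, 1, 4, 2 and 2 had an unadjusted p under 0.05, and DESeq2 called none. Their leading members were spz and Dif, ligand and NF-kappaB factor of Toll signalling, tra2 at -0.28 (vir, a sex determination gene, was called without NP6070/KG00226 replicate 2, at 0.52, adjusted p = 0.0437), mtTFB2 at 0.51 and mtDNA-helicase at -0.33, and His2Av at 0.26 and His4r at -0.26.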
